A study of Mus musculus with 12 samples.

Results

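The genes described here kept about the same signal, averaged over both genotypes, in the mouse cerebellum from P0 to P15 (postnatal days 0 and 15). Their signal was lower at P30. They were found among 7462 probe sets with a mean signal of at least 20 over 12 arrays, a probe set being the group of array features that together measure a transcript on an Affymetrix array. Signals were put on the log2(signal + 4.6) scale and averaged over the 4 arrays of a stage. A probe set was a member when the early change, P15 minus P0, lay within 0.5 in either direction and the late change, P30 minus P15, was -0.8 or lower. This gave 87 members, 1.17% of the probe sets that passed the signal filter. Of these, 77 carried a single gene symbol, for 74 genes, 3 carried several symbols and 7 carried none. Members were chosen by these stage averages of signal, so their changes between stages are a description with no test.

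The arrays compared cerebellum of euploid mice with that of Ts1Cje mice, which have a segmental trisomy of chromosome 16 and model Down syndrome. RNA of whole cerebella was pooled, 3 cerebella for each genotype at P0, P15 and P30 except the euploid P30 pool with 2. Each of the 6 pools was hybridised to 2 arrays, so a genotype at a stage rests on 1 pool, and the arrays of a pool repeat the measurement but not the animals. The sources used here give no strain, sex or further allele. The design compares the genotypes at each stage and the stages within each genotype.

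After birth the cerebellum is still being built. Granule cell precursors divide in the outer layer and their daughters migrate inward and mature, while Purkinje cells extend dendrites, glia multiply, vessels and matrix are laid down and myelin forms. Most of this growth ends between the later stages sampled here. In whole tissue, fewer cells of a type and less RNA per cell cannot be told apart.

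Facts on the whole series touch these values in a few ways. Median signal per array was 30.4 to 36.2. Cerebellar markers were bright, such as Zic1 with 2042.5 to 5170.3 and En2 with 243 to 1101.6 on all arrays, and markers of neighbouring brain were dimmer but in part measured. Of these, the hindbrain genes Hoxb4 and Hoxb3 had 1.2 to 3.8 and 7.7 to 29.2, and Th, the enzyme of catecholamine synthesis, 21.1 to 72.1. Slc6a2, the noradrenaline transporter, reached 44.6, and both Th and Slc6a2 passed the signal filter. The 3' to 5' signal ratio of the actin control, a sign of RNA integrity, was 1.55 and 1.67 on the Ts1Cje P30 arrays and 1.13 to 1.43 on the other 10. That of the Gapdh control was 0.957 and 0.883 on the Ts1Cje P30 arrays, within the 0.841 to 1.07 of the other 10. Xist, which is transcribed from an inactive X, had 105.6 and 77.6 on the Ts1Cje P15 arrays and at most 6.7 elsewhere. The part of these differences in the results was not tested. The hybridisation number mattered for the size of the late change. Over the members its median was -1.25 on the first hybridisations and -0.81 on the second, and 82 and 47 of the 87 members had a late change of -0.8 or lower. Over all probe sets, 6.5% and 2.68% did so. Applied to the first hybridisations alone the rule found 234 probe sets, 76 of them members here, and applied to the second it found 68, of which 41 were members.

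Late decreases of this size were uncommon. Of 7462 probe sets, 229 (3.07%) had a late change of -0.8 or lower. In the other direction, 147 (1.97%) had a late change of 0.8 or higher, and 65.7% had an early change within 0.5. Of the 229, 95 also had an early change below -0.5 and 47 one above 0.5, and the remaining 87 are the members. Over all probe sets the median early change was -0.03 and the median late change 0.06. Among members the late change ranged from -3.59 to -0.80 with a median of -0.99. It was -1.5 or lower for 17, between -1 and -1.5 for 25 and above -1 for 45. The early change was negative for 48 members and positive for 39. All 4 P30 arrays lay below all 4 P15 arrays for 76 members and below all 4 P0 arrays for 72, where the background was 10.2% and 22.3% of probe sets. The rule used these same values, so nothing is read from that excess. The plot of early against late change shows the members as the lower central edge of the cloud.

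**Figure D1:**
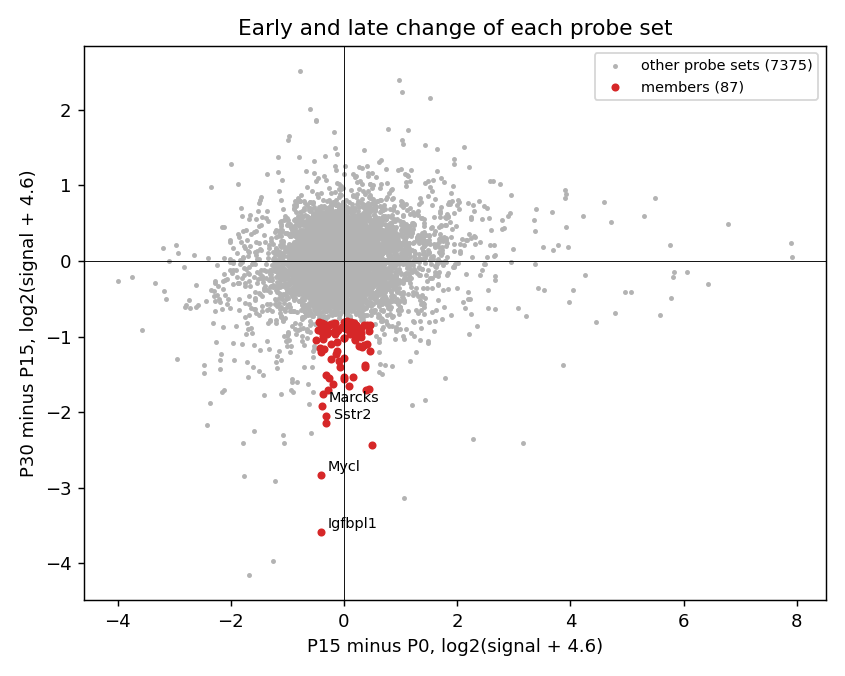
Early change (P15 minus P0, x axis) against late change (P30 minus P15, y axis) of 7462 probe sets, both on the log2(signal + 4.6) scale and averaged over both genotypes. The 87 members (red) have an early change within 0.5 and reach from -0.80 down to -3.59 in late change, where Igfbpl1 lies.

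Igfbpl1, a secreted protein related to the binding proteins of insulin-like growth factors, had the largest late change. Its signal at P0 was 181.1 and 115.7 on the euploid arrays and 150.8 and 114.1 on the Ts1Cje arrays. At P15 it was 110.7 and 58.7 against 149.6 and 111.8, and at P30 8.9 and 3.3 against 3.6 and 2.6. Signal was thus high on all arrays of both early stages and near background on all P30 arrays, without overlap, and the late change was -3.59. Its size depends on the 4.6 added to each signal, since the P30 values are of that order. A dimmer probe set of the gene was also a member (-2.44).

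Mycl encodes L-Myc, a transcription factor of the Myc family. It gave 155.9 and 197.6 in euploid and 181 and 235.6 in Ts1Cje cerebellum at P0, and 161.6, 135.3, 137.5 and 136.7 at P15. At P30 the values were 32.7 and 7.5 in euploid and 9.3 and 24.7 in Ts1Cje. The late change was -2.83, with the same size in euploid (-2.84) and Ts1Cje (-2.81). Both hybridisations of each P30 pool differed widely at this low level, yet all lay below every earlier array.

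The bright membrane protein Marcks, a protein kinase C substrate that binds actin in growing processes, had 1308.6 to 1854.4 at P0 and 1056.7 to 1405.4 at P15. At P30 its 4 arrays lay between 304.1 and 332.9, so the stages did not overlap and the late change was -1.92. Sstr2, a somatostatin receptor, had 41.8 to 70 at P0, 35.5 to 47.7 at P15 and 4.5 to 7.8 at P30 (-2.14). Another probe set of Sstr2 that passed the filter had a late change of -0.59. Rprm, or Reprimo, which acts in the arrest of the cell cycle, had 42.3 to 60.1, 32.7 to 41.7 and 3.6 to 11.9 at the 3 stages (-2.05). Its other probe set had a late change of -1.11 but an early change of -1.59, so stability to P15 held for only 1 of the 2.

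Several leading members curb or adapt signals. Socs2 and Socs3 encode suppressors of cytokine signalling, and Socs2 restrains growth hormone signalling. Socs2 had 278.2 to 342.1 at P0, 213 to 307.6 at P15 and 71.8 to 104.4 at P30 (-1.62). Socs3 was dimmer, with 15.7 to 41.7, 29.5 to 50.8 and 7 to 10.1 (-1.71). For both genes the P30 arrays lay below all others. Txnip, an inhibitor of thioredoxin, had a late change of -1.15, while another of its probe sets had 0.46. The 10 member genes with such roles (signal inhibitors and adaptors) had a median late change of -1.03. These role groups were put together from known functions once the members were known, and carry no test.

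The 10 genes of the cytoskeleton, motors and membrane traffic, Marcks among them, had a median late change of -0.98. Nav1, a microtubule-binding neuron navigator, stayed at 83.3 to 112.1 at P0 and 90.5 to 104.3 at P15 and lay at 24 to 34.5 at P30, the same in both genotypes (late change -1.52 in euploid and -1.61 in Ts1Cje). Sh3gl3, an endophilin of synaptic vesicle recycling, had 96 to 329.6, 191.5 to 237.8 and 58 to 73.4 (-1.65). Its wide P0 range came from euploid values of 225.9 and 96 against 247.7 and 329.6 in Ts1Cje. Outside that group, Kcnk2, a background potassium channel, had 161.9 to 180.2, 213.6 to 252.8 and 59.2 to 74.8 (-1.70). Ppic, or cyclophilin C, a prolyl isomerase in none of the role groups, had 110.8 to 152, 82.6 to 114.5 and 21.5 to 33.5 (-1.76). Of 33 measured genes on a list of immature and migrating neurons, 3 were members: Marcks, Nav1 and the chemokine Cxcl12, the last by a dimmer probe set. The brighter probe set of Cxcl12, which stands for it in the values of this list, had a late change of 0.35. The other genes of the list mostly followed other courses. The list had a median early change of -1.05 and a median late change of -0.38, and 27 of its 33 genes had a late change below 0, against 43.7% of all probe sets. Dcx, a microtubule protein of migrating neurons, had -1.68 and then -4.15, and Sox11, a transcription factor of young neurons, -1.26 and then -3.97, so both were already lower at P15.

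**Figure D2:**
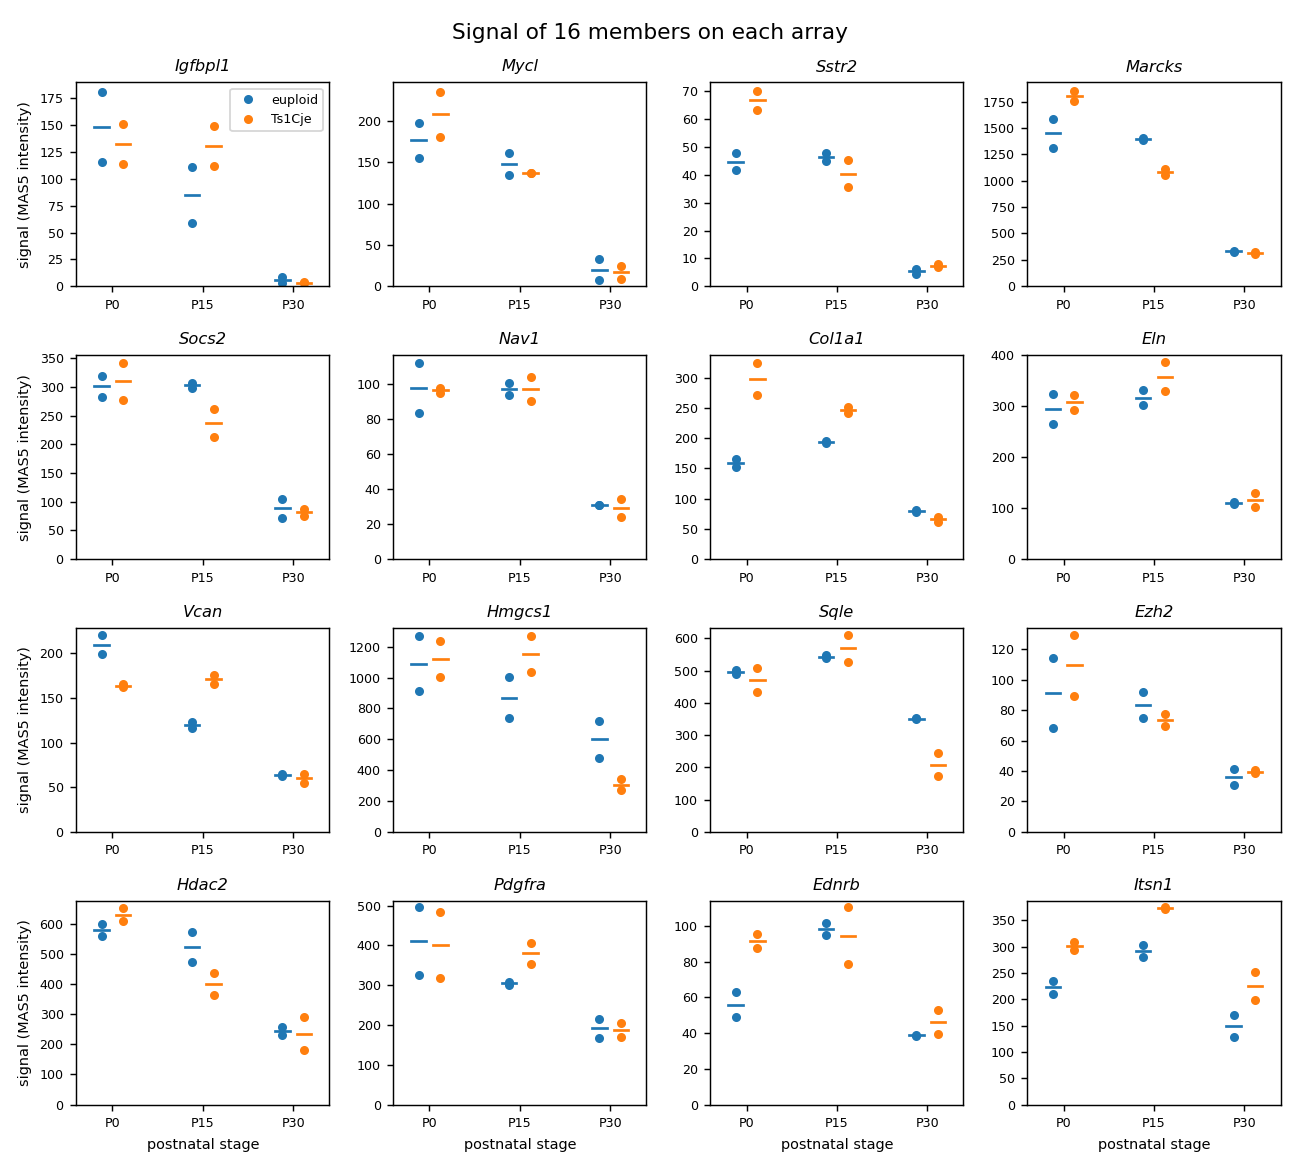
Signal (MAS5 intensity, y axis from 0) of 16 members on each of the 12 arrays by postnatal stage, euploid in blue and Ts1Cje in orange. Points are the arrays and short bars the mean of both arrays of a pool. Igfbpl1, Mycl, Sstr2 and Marcks show the widest gap between P30 and the earlier stages, and Itsn1, on the trisomic segment, lies higher in Ts1Cje at each stage.

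Chromatin regulators were found among the members in several complexes. Polycomb proteins keep genes silent through marks on histones. Ezh2, the enzyme that methylates lysine of histone H3 in one Polycomb complex, had 68 to 129.2 at P0, 69.6 to 91.9 at P15 and 30.5 to 41.3 at P30 (-0.97). Rnf2, the ubiquitin ligase of the other Polycomb complex, had 130.5 to 267.9, 75.8 to 241.4 and 43.7 to 70.2 (-1.30), and Cbx2, a reader protein of that complex, had -1.20. Other probe sets of Rnf2 and Cbx2 gave late changes of -0.32 and 0.36, so these cases rest on 1 probe set each. Hdac2, a histone deacetylase, had 560.9 to 652.6, 362.5 to 572.2 and 180.7 to 290 (-0.93), without overlap between P30 and the earlier stages. Further members were Sinhcaf (-1.19) of the Sin3 deacetylase complex, the H3 methyltransferase Setdb1 (-0.999), Arid2 (-0.93) of a chromatin remodelling complex and Tfdp1 (-0.91), the partner of E2F factors. The 11 chromatin and transcription genes had a median late change of -0.97. On a list of 34 measured chromatin genes, 1 (Hdac2) was a member, the median late change was -0.18, and 26 had a value below 0.

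Of 35 measured genes of cell division and DNA replication, 2 were members, Ezh2 and the spindle protein Nusap1. Nusap1 was dim, with 28.8 to 32.9, 13.7 to 32.4 and 3.3 to 12.4 (-1.51). Summed over the list, euploid signal was 6120, 2857 and 2455 at the 3 stages, and Ts1Cje signal was 5956, 3112 and 2295. Stmn1, which regulates microtubules, made up much of it, and without Stmn1 the sums were 2497, 1832 and 1554 in euploid and 2750, 1833 and 1590 in Ts1Cje. Both sums were lower at P15 already, and the list had a median early change of -0.52 and late change of -0.31. Mki67, a protein of cycling cells, had -1.08 and then -2.30, and Cdk1, the kinase of mitosis, -0.92 and then -1.57. For granule cell progenitors and Sonic hedgehog signalling, 0 of 16 measured genes were members. That list had a median early change of 0.78 and late change of -0.55, and 11 of the 16 had a late change below 0. Nhlh1 and Insm1, transcription factors of newborn neurons, had early changes of 1.20 and 1.06 and late changes of -1.91 and -3.14, the last the lowest of the list. The part of dividing cells in the members' course was not tested.

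RNA-binding proteins had 7 member genes with 9 probe sets and a median late change of -0.89. Sfpq, a splicing factor of paraspeckles, had 3 member probe sets with late changes of -1.71, -1.55 and -0.89. In the first, signal was 52.2 to 87.1 at P0, 44.1 to 77.7 at P15 and 9.9 to 20.1 at P30. All 3 had P30 arrays below all earlier ones, but the size of the change differed between them. Syncrip, or hnRNP Q, which binds messenger RNA, had -1.10, Myef2, a repressor of myelin gene transcription, -1.05, and the splicing regulators Celf2 and Rbfox2 -0.88 each. Other probe sets above the filter had -0.22 for Syncrip, -0.72 for Celf2 and -0.18 for Rbfox2. The P30 range of the Rbfox2 member probe set overlapped both earlier stages. Srsf1, a core splicing factor, had -0.83, with 49.4 to 118.9 at P15 and 31.5 to 58.4 at P30, so these stages overlapped. In a second probe set of Srsf1 that passed the filter the late change was -0.27. On a list of 41 measured genes of RNA processing, 1 was a member (Srsf1), the median late change was -0.15 and 30 were below 0.

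Matrix proteins and their processing formed a group of 7 genes with a median late change of -1.16. Col1a1, a chain of type I collagen, had 152.8 and 165.4 in euploid and 272.1 and 324.3 in Ts1Cje at P0. At P15 it had 192 and 195.1 against 252.2 and 241.7, and at P30 81.6 and 78.3 against 61.3 and 70.1. Ts1Cje arrays lay above euploid arrays at P0 and P15 and below them at P30. The late change was -1.54 and that of a second Col1a1 probe set -0.73. Eln, elastin of vessel walls, stayed at 264.9 to 323.2 at P0 and 301.8 to 386 at P15 and lay at 102.9 to 129.4 at P30 (-1.54), with near-equal change in both genotypes (-1.49 and -1.59). Serpinh1, the collagen chaperone of the endoplasmic reticulum, had -0.91, from -0.20 in euploid and -1.61 in Ts1Cje. Lamc1, a laminin chain, had -0.88, and its Ts1Cje P30 values of 16.7 and 84.2 were far apart.

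The proteoglycans of brain matrix were part of this group. Vcan, or versican, had 162.1 to 220.3 at P0, 116.7 to 176.1 at P15 and 54.2 to 65.4 at P30 (-1.16), and Hspg2, perlecan of basement membranes, had -1.12. Bcan, or brevican, had -1.28 in a dim member probe set and -0.78 in a brighter one, just outside the rule. On the list of extracellular matrix and meninges, 5 of 36 measured genes were members, 26 had a late change below 0, and the median was -0.23. Members and other genes of the list parted ways. Col4a1, a collagen of basement membranes, had -0.55 and then -1.20, while Ptgds, a prostaglandin synthase of the meninges, had 0.35 and then 1.47, and Col1a2 had 0.11 and then 0.35. Summed signal of the list was 6435 to 8343 at P0 and P15 and 8202 and 8533 at P30, and Ptgds set its direction. Without Ptgds, the brightest gene, a sum added after seeing the data, it was 5793, 5365 and 4770 at the 3 stages in euploid and 7127, 6254 and 4961 in Ts1Cje, lowest at P30. Among 20 measured genes of endothelium and pericytes, 0 were members and the median late change was 0.07. Cd93, a receptor of endothelial cells outside that list, had 66.4 to 118.5, 62.9 to 97.3 and 17 to 37.1 (-1.41). The summed signal of the endothelial list was 1309 to 1691 at the early stages and 1481 and 1539 at P30.

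Sterol synthesis was the list with the most members for its size: 5 of 16 measured genes (74 of 5676, or 1.30%, over all measured genes). Cells make cholesterol from acetyl-CoA through this chain, and brain cells rely on their own synthesis, which is high while membranes and myelin are laid down. Hmgcs1, the synthase that commits acetyl-CoA to the pathway, had 1268.4 and 911.7 in euploid and 1235.6 and 1004.4 in Ts1Cje at P0. At P15 it had 1000.5 and 736.6 against 1035.9 and 1271.2, and at P30 479.5 and 717.4 against 268.9 and 341.1. All P30 arrays lay below the earlier ones, narrowly in euploid and widely in Ts1Cje, and the late change was -1.23. Sqle, squalene epoxidase, had 433.6 to 508.7 at P0, 526.9 to 610.3 at P15 and 351.6, 350.4, 172.3 and 243.2 at P30 (-1.04). Lss, which closes the sterol ring, had -1.19, Cyp51, which removes a methyl group of lanosterol, -0.81, and the sterol reductase Tm7sf2 -1.07. A brighter probe set of Tm7sf2 had only -0.17, and the P30 values of its member probe set were 11.8 to 59.

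Other enzymes of the pathway had a late change below 0 with few exceptions. Over the 16 measured genes, each given by its brightest probe set, the median late change -0.42, and 15 were below 0. The exception was Srebf1, which encodes a regulator of lipid synthesis (0.07). Mvd and Idi1, enzymes of the mevalonate steps, had late changes of -0.90 and -0.87 but early changes of 0.67 and 0.69, which kept them outside the rule. The median late change of the list was -0.23 in euploid and -0.87 in Ts1Cje, and it was larger in Ts1Cje for 14 of 16 genes, against 50.2% of all probe sets. Other lists leaned the same way, with 20 of 24 ribosomal protein genes, 13 of 15 myelin genes and 37 of 46 oxidative phosphorylation genes. Mature granule cell genes (2 of 15) and Purkinje cell genes (4 of 16) leaned the other way. Myelin genes, a main site of cholesterol use, had a median late change of -0.04 over 15 measured genes after an early change of 3.86, and 0 were members. Their median late change was 0.17 in euploid and -0.41 in Ts1Cje. The Ts1Cje P30 arrays also had the highest actin 3' to 5' ratios, while their Gapdh ratios lay within the range of the other arrays. The part of RNA quality in their low sterol values was not tested.

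**Figure D3:**
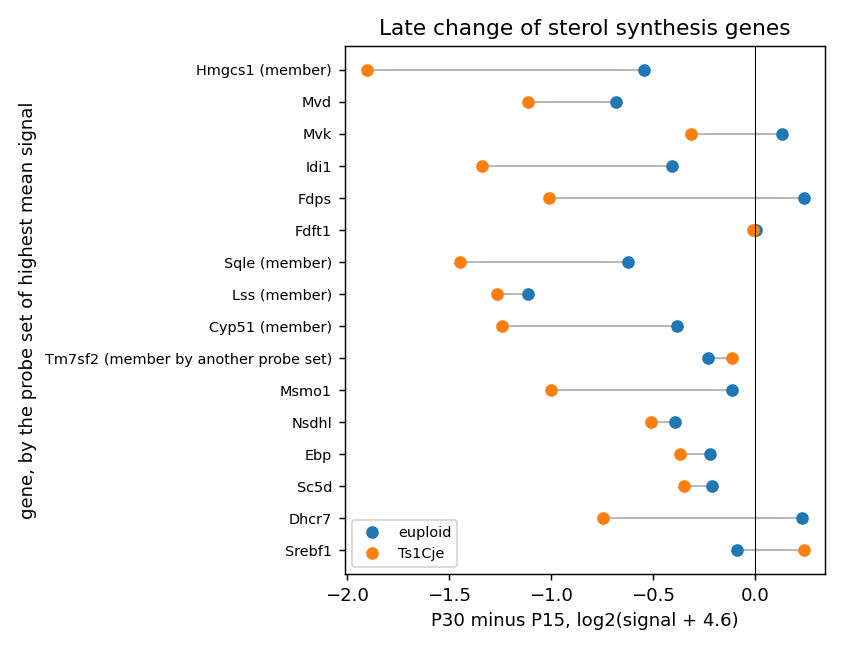
Late change (P30 minus P15 on the log2(signal + 4.6) scale, x axis) of the 16 measured cholesterol synthesis genes in euploid (blue) and Ts1Cje (orange) cerebellum, 1 pool each at each stage. Ts1Cje lies further to the left for 14 of 16 genes, with Hmgcs1 the furthest at -1.91 against -0.55.

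Promoters of the sterol members are shown because these genes had the shared course and belong to a pathway with known promoter elements, the sterol regulatory element bound by SREBP factors and the CCAAT box bound by NF-Y. RefSeq windows of 300 bases (GRCm38.p6, 250 bases before to 50 after the start) were given for Hmgcs1 (chr13:119690101-119690400, + strand), Cyp51 (chr5:4104648-4104947, - strand), Lss (chr10:76531355-76531654, + strand) and Tm7sf2 (chr19:6067801-6068100, - strand). Sqle has no entry. Capitals mark the element TCACNCCAC and the box CCAAT on either strand.
Hmgcs1: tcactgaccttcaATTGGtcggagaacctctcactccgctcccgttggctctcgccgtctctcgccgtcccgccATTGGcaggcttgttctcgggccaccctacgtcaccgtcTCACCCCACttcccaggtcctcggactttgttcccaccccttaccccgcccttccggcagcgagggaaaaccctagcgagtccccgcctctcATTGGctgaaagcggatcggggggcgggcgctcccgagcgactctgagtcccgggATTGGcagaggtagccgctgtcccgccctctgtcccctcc
Cyp51: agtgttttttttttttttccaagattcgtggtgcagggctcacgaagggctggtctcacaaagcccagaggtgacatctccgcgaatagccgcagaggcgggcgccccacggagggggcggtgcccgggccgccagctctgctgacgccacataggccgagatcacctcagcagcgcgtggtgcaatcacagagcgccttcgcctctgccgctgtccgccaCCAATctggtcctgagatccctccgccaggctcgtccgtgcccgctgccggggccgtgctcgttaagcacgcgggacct
Lss: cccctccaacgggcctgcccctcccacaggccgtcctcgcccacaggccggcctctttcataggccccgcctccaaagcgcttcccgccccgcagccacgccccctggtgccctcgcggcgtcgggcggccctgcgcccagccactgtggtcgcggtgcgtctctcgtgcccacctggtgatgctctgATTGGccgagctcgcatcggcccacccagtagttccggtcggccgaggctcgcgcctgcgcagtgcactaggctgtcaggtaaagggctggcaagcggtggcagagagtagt
Tm7sf2: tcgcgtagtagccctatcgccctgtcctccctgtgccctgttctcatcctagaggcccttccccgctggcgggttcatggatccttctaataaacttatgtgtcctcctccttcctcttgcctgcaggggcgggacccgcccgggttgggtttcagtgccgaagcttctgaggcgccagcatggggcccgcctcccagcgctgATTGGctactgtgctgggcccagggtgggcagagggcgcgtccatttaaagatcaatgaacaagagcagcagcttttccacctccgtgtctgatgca
The element was found in 1 of the 4 windows, that of Hmgcs1, and in 1.68% of 4592 measured genes with a window. The CCAAT box was found in all 4 (4 times in Hmgcs1) and in the windows of all 13 measured sterol genes with an entry, against 43.1% of measured genes. These are matches of letters and not sites. Over all members, 59 of 74 genes had a window. Their median GC content was 64.3%, against 61.0% for measured genes, 79.7% held the GC box GGGCGG against 71.0%, and 5.08% held TATAAA against 9.52%. The CCAAT box was as common in members (44.1%) as in measured genes.

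Receptors of glial precursors were also members. Pdgfra, the growth factor receptor that marks oligodendrocyte precursors, had 317.4 to 495.6 at P0, 301.5 to 405.3 at P15 and 168.2 to 214.3 at P30 (-0.83), without overlap. A dimmer probe set had 0.04. Ednrb, an endothelin receptor of glia, had 48.8 to 95.3, 78.7 to 110.4 and 38.4 to 52.7 (-1.10), and its P30 range overlapped that of P0. Of 9 measured genes on the list of oligodendrocyte precursors, 2 were members, 7 were below 0 and the median late change was -0.77. Fyn, a kinase of myelinating cells, had -0.33 and then -0.79, and Sirt2, a deacetylase of maturing oligodendrocytes, 1.73 and then -0.77. The summed signal of the list was 2209 to 2498 at P0 and P15 and 1537 and 1454 at P30. That of mature myelin genes went from 1061 and 983 at P0 to 8782 and 9264 at P15 and 9581 and 8324 at P30. Cxcl12, a chemokine that guides granule cell precursors, had -1.02 in its member probe set and 0.35 and 0.56 in both others, which pointed the other way. Gria2, an AMPA receptor subunit, had -0.89, and -0.24 and -0.09 in others.

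Other probe sets of the same genes did not often repeat the pattern. Of the 74 member genes, 24 had a further probe set above the signal filter, 28 in all. Their median late change was -0.20, with 17 below 0, and 1 (Rprm) at -0.8 or lower. Values between -0.62 and -0.78 were found for Bcan, Col1a1, Celf2, Tfdp1 and Fubp1. Values above 0 were found for Akap8 (0.10 and 0.43), Cbx2 (0.36), Cxcl12, Mprip (0.07), Mtmr9 (0.07), Nudcd2 (0.02), Pdgfra (0.04), Tax1bp3 (0.27) and Txnip. Both Igfbpl1 probe sets and 3 of Sfpq were members. A member was chosen for its low value, and another probe set of the gene can read other transcript ends, so the gap has no test here. Of the members, 16 (18.4%) had identifiers that mark probes shared between transcripts or chosen under relaxed rules, against 18.5% of all probe sets.

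**Figure D4:**
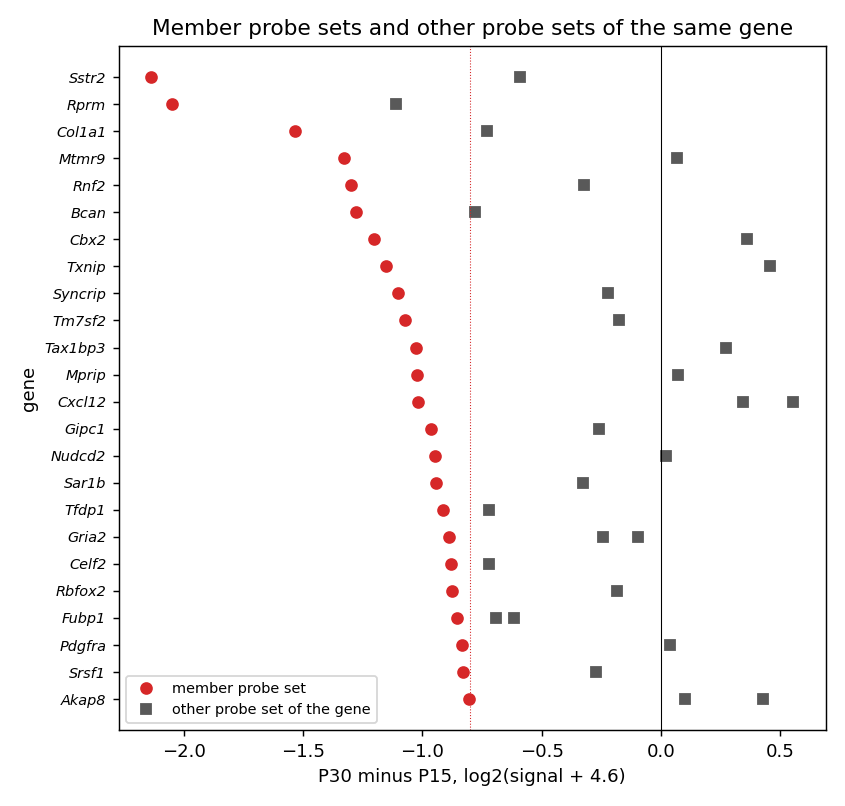
Late change (P30 minus P15 on the log2(signal + 4.6) scale, x axis) of member probe sets (red circles) and other probe sets above the signal filter (grey squares) for 24 genes (y axis). The dotted line marks the -0.8 of the rule. Of 28 squares, 1 lies beyond it (Rprm, -1.11), and the squares have a median of -0.20.

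Values at the edges of the rule show how little separated the last members from the next probe sets. Pdia3, a disulfide isomerase (-0.8004), Med10, a Mediator subunit (-0.8028), and Akap8 (-0.8039) lay just inside the late limit, and Tmem176a (-0.7994), Xpo1 (-0.7981) and Zmynd8 (-0.7962) just outside. For the early limit, the dimmer Igfbpl1 probe set (0.49), Myef2 (-0.49) and Lss (0.47) lay inside and Kat2a, Sec61a2 and Fzd2 (each -0.51) outside. The dimmest members were Mprip, a partner of myosin phosphatase (mean signal 20.9), Nusap1 (21.0) and Igfbpl1 (22.2), and 10 dimmer probe sets met the limits on change, among them Ssbp4 (18.0), Ly75 (17.8) and R3hcc1 (14.8). Among the members of highest signal, Dynll1, a light chain of dynein, had a late change of -0.87, Ddah2, of the dimethylaminohydrolase family, -1.14, and Ice1, of a complex that transcribes small nuclear RNAs, -0.84.

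The 14 member genes outside the role groups had late changes of -1.76 to -0.80. The 7 members with no symbol and the 3 with several had -1.40 to -0.85, and are not named.

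Both genotypes shared the late decrease. All 87 members had a late change below 0 in each genotype, with a median of -1.04 in euploid and -1.13 in Ts1Cje, against 0.06 and 0.05 over all probe sets. The change was -0.8 or lower in 63 members in euploid, in 67 in Ts1Cje and in 43 in both. The whole rule, applied to the arrays of 1 genotype, kept 46 members in euploid and 51 in Ts1Cje, and 17 met it in both. Stability to P15 was thus in part a property of the average. The early change lay beyond 0.5 in either direction for 22 members in euploid and 21 in Ts1Cje. For some the genotypes had opposite early changes, such as Nudcd2 with 1.05 in euploid and -0.45 in Ts1Cje. Mtmr9, a relative of the myotubularin phosphatases, had -1.06 in euploid and -1.59 in Ts1Cje. The rule used the mean of both genotypes, so these values describe how the mean was composed.

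Whether the genotypes differed was tested with limma over all 7462 probe sets, since the rule averaged the genotypes. With genotype and stage in the model, the difference between Ts1Cje and euploid reached an adjusted p under the threshold for 0 members and for 0 probe sets (0% called). The 24 measured genes of the trisomic segment had a median difference of 0.48. In limma 17 of them had an unadjusted p under 0.05 and 0 were called. A count of 0 calls therefore does not show that the genotypes were alike. At an unadjusted p under 0.05 there were 4 members and 2.92% of all probe sets. That count of members became 16 when either P15 pool was left out, where the share of all probe sets was 7.72% (euploid) and 7.75% (Ts1Cje). It was 8 without either P0 pool (4.19% and 4.18% of all), 3 without the euploid P30 pool and 2 without the Ts1Cje P30 pool (2.56% of all in each case). Leaving out either P30 pool also gave 6 called probe sets, and either P0 pool 1, with 0 members among them. With 1 pool of a stage left out, the other pool of that stage carries no genotype comparison. Leaving out either pool of a stage therefore gave the same differences and counts as a single check, the removal of that stage. The median difference over members was -0.01, near 0 as over all probe sets, with a range from -0.67 to 0.46, and 42 members had a difference above 0 (49.6% of all probe sets). Members with 1 direction at all 3 stages numbered 14, against 20.8% of all probe sets. Of these 5 were higher in Ts1Cje (background 11.7%) and 9 lower (background 9.14%). The hybridisations of both genotypes did not overlap for 34 members at P0 (background 44.3%), 37 at P15 (39.5%) and 37 at P30 (39.3%).

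Itsn1, an endocytic scaffold on the trisomic segment, had the largest positive difference among members. Its euploid arrays had 210.5 and 234.5 at P0, 279.9 and 303.3 at P15 and 169.9 and 128 at P30. The Ts1Cje arrays had 292.9 and 308.5, 374.8 and 372.4, and 252.3 and 198.4, above the euploid arrays at each stage. The difference was 0.46 ± 0.12 (SE, 3 stages, limma adjusted p = 1), and Itsn1 was the only 1 of 24 measured trisomic genes in the set. Akap8, an anchoring protein of nuclear kinase A, had -0.41 ± 0.15, Cbx2 -0.43 ± 0.20 and the least changed Sfpq probe set -0.25 ± 0.13. Gp1bb, a platelet glycoprotein chain, had 0.26 ± 0.14. Each of these had an adjusted p of 1 in limma. Several sizes rest on the hybridisation or pool. The Cbx2 difference was -1.02 with the first hybridisations alone and turned to 0.16 with the second. That of Akap8 was -0.17 with the first, -0.64 with the second and -0.27 without either P0 pool, and that of Gp1bb was 0.16 without either P0 pool.

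A second model asked whether the drop at P30 differed between genotypes, as the difference at P30 minus the mean difference at P0 and P15. Limma called 5 of 7462 probe sets (0.067%), Sh3bp1, Zbtb16, Cmip, Igfbp3 and Sst, and 0 members. At an unadjusted p under 0.05 there were 8 members, against 2.25% of all probe sets. That count was 14 with the first hybridisations alone (3.75% of all), 5 with the second (2.04%) and 12 with the replicate block (4.74%). The rule used the P30 values, so a low P30 pool can both make a probe set a member and enlarge its term. Nothing is therefore read from the excess of members. Dusp2, a phosphatase of MAP kinases, had the largest term, -1.46 ± 0.40 (adjusted p = 0.446). Its Ts1Cje P30 arrays had 17 and 32.4 against 49.9 and 66.2 in euploid, while the earlier stages gave 58.4 to 116.9. Lamc1 had -1.29 ± 0.39 and Hmgcs1 -1.18 ± 0.33, neither past the threshold. The Lamc1 term was -1.97 with the first hybridisations alone and -0.61 with the second. The median term over members was -0.16, against -0.01 over all probe sets, and the late change was larger in Ts1Cje for 48 of 87 members. All 7 matrix genes and 4 of 5 sterol genes had the larger late change in Ts1Cje, while 9 of 11 chromatin genes had it in euploid. These role groups were formed with the values known and their split was not tested. The chromatin split did not extend to the wider list. There the late change was larger in Ts1Cje for 20 of 34 measured chromatin genes, with medians of -0.16 in euploid and -0.25 in Ts1Cje. On the list of extracellular matrix and meninges it was larger in Ts1Cje for 24 of 36, against 50.2% of all probe sets.

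**Figure D5:**
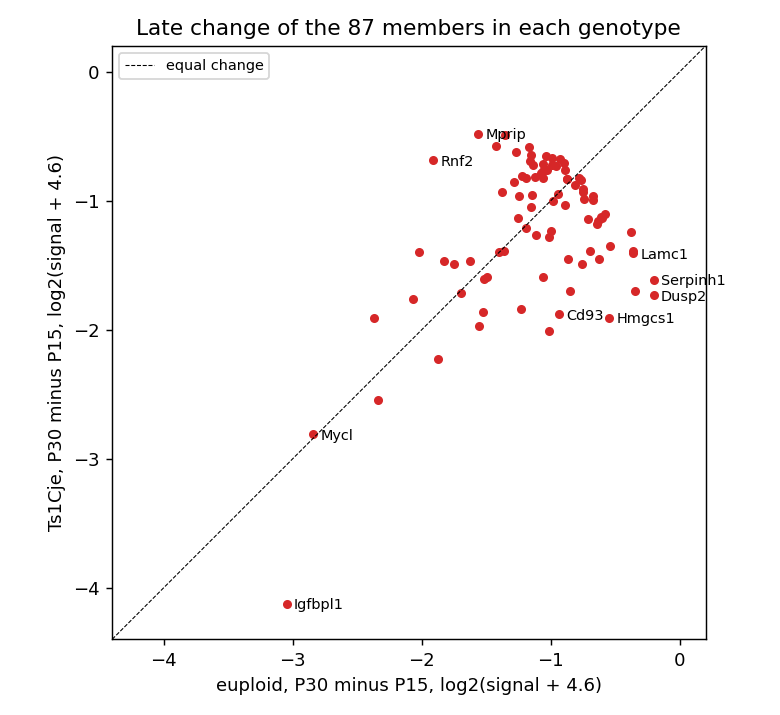
Late change (P30 minus P15 on the log2(signal + 4.6) scale) of the 87 members in euploid (x axis) and Ts1Cje (y axis), 1 pool per genotype and stage. The dashed line marks equal change. Igfbpl1 and Mycl lie far down in both genotypes, while Serpinh1, Dusp2 and Hmgcs1 lie to the right with values of -0.20, -0.20 and -0.55 in euploid.

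By position, the member genes were spread over most chromosomes. Chromosome 11 held 12 of them (16.2%, against 8.97% of measured genes) and chromosome 2 held 9 (12.2% against 8.16%). Chromosome 16 held 4 (5.41% against 3.01%). Of 28 gene lists, 8 held members. The 20 without any included Purkinje cells, mature granule cells, microglia, ribosomal proteins, oxidative phosphorylation and the proteasome, whose median late changes were 0.18, 0.32, 0.13, -0.20, -0.03 and -0.10.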

How the data were processed

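Total RNA of frozen single cerebella was extracted, treated with DNase, pooled and labelled as cRNA, per the labels' protocols. The deposited values are linear signal intensities made by the authors with MAS5, per the submitters' processing notes, which name neither version nor settings. Each array, judged by its values, had been scaled to a trimmed mean of about 100.1. Signal over background and the number of arrays limit the precision. Gene symbols came from the platform annotation, and all 74 member genes matched RefSeq (GRCm38.p6), used for names and chromosomes.

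Signals were transformed to log2(signal + 4.6), on which all changes are given; it understates changes of dim probe sets. Left out were 66 controls and all features with a mean signal under 20. The pool was taken as the replicate, by the mean of the log2 values of its hybridisations. Limma 3.58.1 in R 4.3.3 (lmFit, eBayes with trend, two-sided, Benjamini-Hochberg over 7462 probe sets, threshold 0.05) fitted stage and genotype (2 residual degrees of freedom), and a second model added a genotype term at P30 (1 residual degree of freedom). With 1 pool per genotype and stage, the p-values rest on how far the genotype difference varied between stages. That variation cannot be told apart from the spread between pools. In the second model it comes from P0 and P15 alone. An exact permutation of 3 pools against 3 that ignores stage cannot go below 0.1. One that exchanges genotypes only within a stage has fewer arrangements and a higher floor. Both fits were run on simulated data with known changes, where both made more false calls than the threshold implies, the second model the more. A list gene was represented by its probe set of highest mean signal. The alternatives were another pseudocount, filter, scaling, hybridisation, variance model and replicate unit, and leaving out pools.

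Named members are the 20 largest late changes, the 10 of highest signal, up to 4 per gene list, the 5 with the smallest genotype p and 1 direction at all 3 stages, the 3 with the smallest p in the second model and the 3 at each side of a limit. Further members were named for their roles after their values were seen. The members and lists were chosen with earlier results of these data known.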

Additional observations from a re-analysis of the deposited data

Results flagged for a closer look

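These named members had Ts1Cje arrays above the euploid arrays at 1 stage and below them at another. Each stage has 1 pool per genotype, both hybridisations of a pool were required not to overlap, and the difference between stages was not tested except for P30 in the second model, which called 0 members. At any stage, 39.3% to 44.3% of all probe sets had hybridisations that did not overlap between genotypes.

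Between P0 and P15 the log2 difference, Ts1Cje minus euploid, went from 0.32 to -0.36 for Marcks, from 0.735 to -0.56 for Socs3, from 0.93 to -0.19 for Sh3gl3, from 0.39 to -0.39 for the Sfpq probe set with the largest late change, from 0.12 to -0.38 for Hdac2 and from -0.35 to 0.49 for Vcan. Between P0 and P30 it went from 0.39 to -0.42 for the same Sfpq probe set, from 0.88 to -0.27 for Col1a1, from 0.555 to -0.66 for Cd93, from 0.24 to -0.81 for Mtmr9 and from 0.24 to -1.14 for Dusp2. Between P15 and P30 it went from -0.19 to 0.18 for Sh3gl3, from 0.34 to -0.27 for Col1a1, from 0.42 to -0.94 for Hmgcs1 and from 0.49 to -0.92 for Serpinh1.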

How the results depend on the processing

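No member was called for genotype or for the drop at P30 under any alternative that gave a test. The number of members was 234 with the first hybridisations and 68 with the second, 194 with a late limit of 0.6, 42 with one of 1 and 50 with an early limit of 0.3, and 64 to 121 under the others. A pseudocount of 16 kept 58 of the 87, one of 1 kept 85 and quantile normalization 83, which moved the median late change of all probe sets from 0.06 to 0.02. The 5 probe sets called for the drop at P30 became 0 with a pseudocount of 16, without the signal filter, with a minimum signal of 50, with quantile normalization, with either hybridisation alone, without the trend and with all 12 arrays and the hybridisation number as a replicate block. For genotype that block gave 6 called probe sets in place of 0, and leaving out a pool gave 0 to 6. Hybridisation numbers were not taken to pair the pools, since the 15 correlations of deviations ran from -0.12 to 0.35, not all above 0.1, although the late change was larger on the first hybridisations. The block moved no median over members. The members' median term for the drop at P30, -0.16, was -0.135 with a pseudocount of 16, -0.153 with one of 1, -0.169 with quantile normalization, -0.129 to -0.125 with 1 hybridisation and -0.303 to -0.025 without a P0 or P15 pool, a value with no test; without a P30 pool it could not be fitted. The median early change of members in euploid, 0.104, was 0.093 with a pseudocount of 16, 0.116 with a minimum of 50, 0.076 with quantile normalization and 0.069 to 0.079 with 1 hybridisation, and in Ts1Cje, where it was -0.14, single hybridisations gave -0.217 to -0.142. The genotype difference of Cbx2 was -1.02 with the first and 0.16 with the second hybridisations alone. The cause of these shifts was not tested. Dim members near background are the least certain, as 17 of 87 had a mean signal under 50.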
